A study of Mus musculus with 2 samples.

Results

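The transcripts described here encode 10 Krüppel-like factors (KLFs): Klf2, Klf3, Klf4, Klf5, Klf6, Klf7, Klf9, Klf10, Klf12 and Klf17. They were selected on earlier results of the comparison reported below, RNA precipitated with an antibody against FLAG against input RNA, so their values in that comparison are a description and carry no test. They were found by gene symbol and gene ID among the array's probes, and all 10 were among the 15266 genes measured. The 18 probes of these genes include 15 that cleared the scanner's background test on each array of the Input, of the FLAG IP or of both, and 3 that did not.

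The material was embryonic mouse gonad, male, strain MCH, at embryonic day 14.5. Both groups carried the transgene labelled Tg-Nanos2 enhancer-3xFLAG-Nanos2-3'UTR, which by its label places FLAG-tagged Nanos2 under a Nanos2 enhancer. The FLAG IP group is RNA recovered with anti-FLAG M2 agarose, and the Input group is RNA taken with no antibody. Each group had 2 one-colour arrays, described by the submitters as biological duplicates. A precipitate from gonads without the tag was not analysed here, so RNA held by the beads alone was not measured.

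KLFs are transcription factors that bind GC-rich and CACCC-type DNA through zinc fingers at the end of the protein. By their other parts they fall into a group that mostly activates genes (Klf1, Klf2, Klf4, Klf5, Klf6, Klf7), a group that represses through the corepressor CtBP (Klf3, Klf8, Klf12) and a group that binds the corepressor Sin3 (Klf9, Klf10, Klf11, Klf13, Klf14, Klf16). Several are made quickly after a stimulus from mRNAs that are short-lived. Nanos2 is an RNA-binding protein of male germ cells that brings bound mRNAs to the CCR4-NOT deadenylase. RNA recovered with it can include transcripts in its complexes, and does not report on the activity of the factors they encode.

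The arrays differed in brightness, and the values below are log2 signals relative to the 75th percentile of each array. That percentile was 1026 and 1038 intensity units for Input, whereas replicate 1 of the FLAG IP had 55.7 and replicate 2 had 608. Over all genes the SD of a pair of replicates had a median of 0.060 (log2) for Input and 0.30 for FLAG IP. Of the markers fixed for each cell type, 3 of 5 germ cell markers rose and 1 fell, 5 of 5 Sertoli markers fell, 5 of 5 Leydig markers fell, 3 of 6 endothelial markers fell, 3 of 4 measured macrophage markers fell and 4 of 4 measured erythroid markers fell, where limma called 28.0% of all genes higher and 25.4% lower. The germ cell markers were Ddx4, Dazl, Nanos2, Mael and Dnd1, and so include the gene of the tagged protein. The Input is bulk tissue RNA, in whose levels fewer cells of a type and less RNA per cell cannot be told apart. The difference FLAG IP minus Input compares scaled levels in the precipitate and in the Input, and does not count cells. In it, RNA held by the beads alone is not separated from RNA recovered with the antibody.

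Of the 10 KLF transcripts, 6 were higher after FLAG IP by 2-fold or more, with arrays that did not overlap between groups: Klf5, Klf17, Klf10, Klf7, Klf4 and Klf9. Among all 15266 genes, 23.9% met that criterion. Arrays that did not overlap, at any size of difference, were seen in 80.2% of all genes, so that alone sets no gene apart. One transcript, Klf2, stood at least 2-fold lower with arrays that did not overlap, a criterion met by 23.2% of all genes. The remaining 3, Klf3, Klf6 and Klf12, differed by less than 2-fold. The median log2 difference of the 10 was 1.29, against 0.07 for all genes. Because this comparison chose the genes, nothing is read from these counts.

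**Figure D1:**
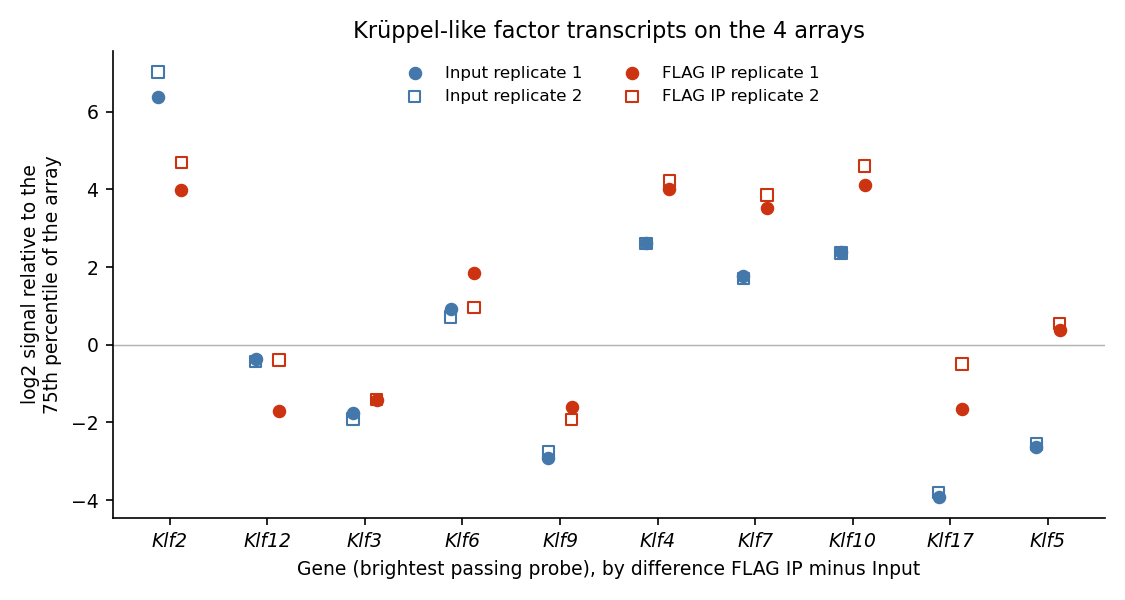
The y axis is the log2 signal relative to the 75th percentile of the array and the x axis the 10 genes, ordered by the difference FLAG IP minus Input; circles are replicate 1 and open squares replicate 2, blue for Input and red for FLAG IP. The Input replicates nearly coincide except for Klf2, and FLAG IP replicates are widest apart for Klf12 and Klf17; levels of different genes come from different probes and are not comparable.

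In the activator group the differences ran from -2.36 for Klf2 to 3.05 for Klf5. Klf5, a factor of proliferating epithelia and of embryonic stem cell self-renewal, read -2.63 and -2.55 on the Input arrays and 0.38 and 0.54 on the FLAG IP arrays. Both FLAG IP arrays were far above both Input arrays, a log2 difference of 3.05 ± 0.17 (SE from limma, n = 2 arrays per group), or 8.28-fold. It lay at the 98.9th percentile of the differences of all genes. A second Klf5 probe was not well above background on any array, at 3.45 and 2.21 intensity units in the Input and 3.48 and 2.24 in the FLAG IP, and gives no fold.

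Klf4, a pluripotency factor that is also made by Sertoli cells, read 2.61 on each of the Input arrays and 4.02 and 4.22 on the FLAG IP arrays. The groups did not overlap, and the difference was 1.51 ± 0.17 (2.85-fold). After normexp background correction it was 0.89, under 2-fold. Klf7, known for its part in the development of neurons, had 2 probes. The one that stands for the gene read 1.77 and 1.70 in the Input and 3.51 and 3.86 in the FLAG IP, a difference of 1.94 ± 0.20 (3.85-fold). The other Klf7 probe read 1.27 and 1.23 in the Input and 3.13 and 3.04 in the FLAG IP, a difference of 1.83 (3.56-fold). The Klf7 probes thus differed from each other by less than the spread of the FLAG IP arrays on the first of them.

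Klf6, a factor induced by tissue injury, read 0.92 and 0.72 in the Input and 1.85 and 0.97 in the FLAG IP. The higher FLAG IP value was that of replicate 1, and replicate 2 barely exceeded the higher Input array. The log2 difference was 0.59 ± 0.35, and it was 0.15 without FLAG IP replicate 1 and 1.03 without FLAG IP replicate 2.

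Klf2, which holds endothelial cells and T lymphocytes in a quiescent state, gave opposite signs on its probes. The probe that stands for the gene (A_52_P442031) read 6.38 and 7.02 in the Input and 3.98 and 4.69 in the FLAG IP. Both FLAG IP arrays were below both Input arrays, a difference of -2.36 ± 0.37, or 5.15-fold lower. The other probe (A_51_P144264) read 2.05 and 1.97 in the Input and 2.92 and 1.95 in the FLAG IP, a difference of 0.42 with groups that overlapped. The deposited annotation assigns both probes to 1 and the same RefSeq transcript, and both were well above background on all 4 arrays. The first probe was also the one with the widest Input spread among those standing for the 10 genes, with an SD of 0.46 (log2) between the Input arrays, at 85156 and 134929 intensity units. With the mean of both probes the Klf2 difference was -0.97, and Klf2 no longer met the criterion for a 2-fold lower transcript.

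**Figure D2:**
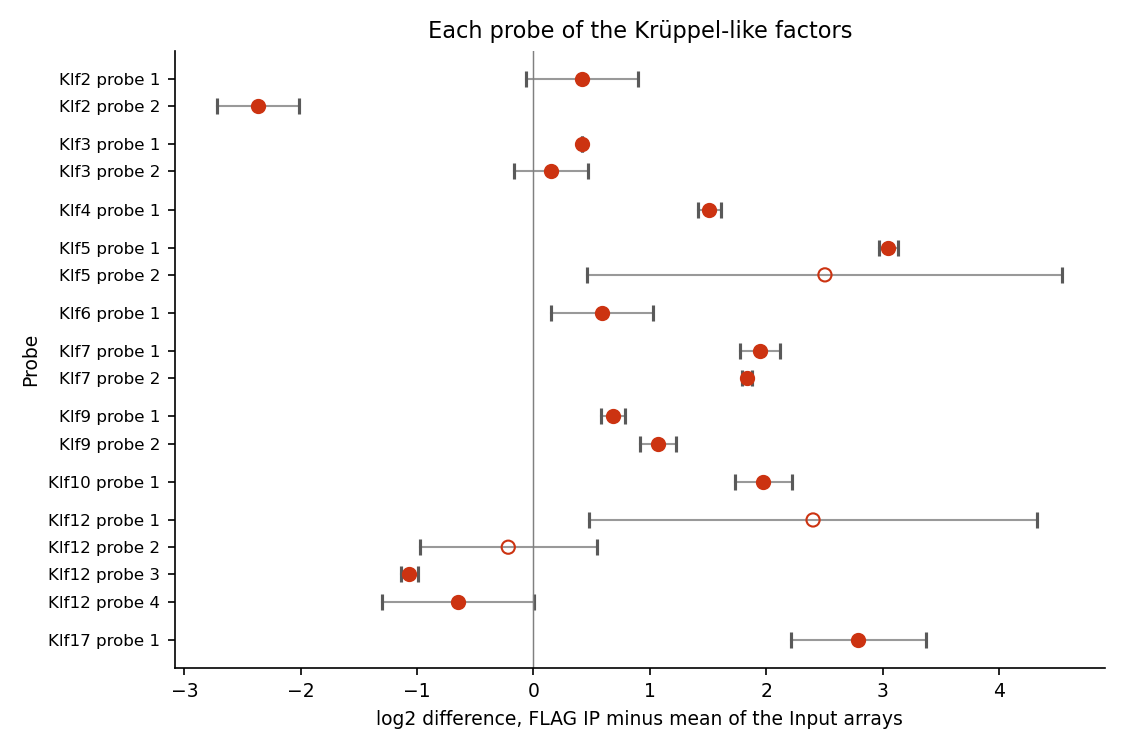
The x axis is the log2 difference from the mean of the Input arrays and the y axis each of the 18 probes; large circles are the mean of the FLAG IP arrays, ticks joined by a line are the 2 FLAG IP arrays, and open circles are probes that were not well above background on both arrays of any group. The Klf2 probes lie at 0.42 and -2.36, whereas the Klf7 probes lie at 1.94 and 1.83.

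Both described members of the CtBP-binding group differed little. Klf3, a repressor active in red cell precursors and fat cells, read -1.74 and -1.91 in the Input and -1.41 on each FLAG IP array. Its difference was 0.42 ± 0.16, without overlap, as in 80.2% of all genes, and its other probe gave 0.15 with groups that overlapped. That other Klf3 probe was well above background on 1 FLAG IP array. Klf12, named early on as a repressor of the gene for AP-2alpha, had 4 probes, of which 2 passed the filter on background. The probe that stands for the gene read -0.35 and -0.43 in the Input and -1.69 and -0.39 in the FLAG IP. Only FLAG IP replicate 1 was low, and the difference of -0.65 ± 0.48 became 0.01 without that array and 0.13 after normexp background correction. The other passing Klf12 probe read -0.92 and -1.23 in the Input and -2.22 and -2.07 in the FLAG IP, a difference of -1.07 without overlap. On FLAG IP replicate 1 these Klf12 probes had processed signals of 17.2 and 12.0 intensity units. Without FLAG IP replicate 2 Klf12 was at -1.30, and the transcripts at least 2-fold lower then numbered 2 of 10, Klf2 and Klf12.

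In the Sin3-binding group, Klf10 and Klf9 stood higher. Klf10, the TGF-beta inducible early gene, read 2.39 and 2.36 in the Input and 4.11 and 4.60 in the FLAG IP. The groups were well apart, with a difference of 1.97 ± 0.23 (3.93-fold), which was 1.21 after normexp. Klf9, a target of thyroid and glucocorticoid hormones, read -2.92 and -2.75 in the Input and -1.61 and -1.92 in the FLAG IP. That difference, 1.07 ± 0.20 (2.10-fold), is near the 2-fold limit, and it was 0.94 when each array was centred on its median. The other Klf9 probe gave 0.68, with no overlap and with 1 FLAG IP array well above background.

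Klf17, first described as a zinc finger gene of germ cells, has a single probe here. It read -3.91 and -3.81 in the Input and -1.64 and -0.49 in the FLAG IP. Both FLAG IP arrays were above the Input, but they were 1.15 apart on the log2 scale, the widest gap between FLAG IP arrays after Klf12 among the probes standing for the 10 genes. The difference was 2.79 ± 0.43 (6.92-fold), and it was 3.37 without FLAG IP replicate 1 and 2.21 without FLAG IP replicate 2. Klf17 was at 17.8 intensity units on FLAG IP replicate 1.

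The order of the differences was Klf5, Klf17, Klf10, Klf7, Klf4, Klf9, Klf6, Klf3, Klf12 and Klf2. Klf5 and Klf17, at 3.05 and 2.79, were closer to each other than the SE of Klf17. Klf10 and Klf7, at 1.97 and 1.94, were closer than the SE of either. In the authors' deposited table the ratio of FLAG IP to Input was 7.62 for Klf5, 6.38 for Klf17, 3.62 for Klf10, 3.54 for the first Klf7 probe and 2.62 for Klf4. The deposited ratio for Klf9 was 1.94 on the probe that stands for the gene and 1.48 on the other, both under 2-fold. The authors' deposited table gave 1.23 and 0.175 for the Klf2 probes. These are pooled values of each group.

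Summed levels of cell type markers also differed between the groups, higher after FLAG IP for germ cells and lower for the other types. Such sums are linear and give most weight to the brightest markers, so single markers can differ from them. The summed scaled signal of the 5 germ cell markers was 61.8 and 62.4 in the Input and 103 and 120 in the FLAG IP. That sum includes Nanos2, which the transgene also carries, and its part in the sum was not separated. For the 5 Sertoli markers it was 119 and 101 in the Input and 14.5 and 17.2 in the FLAG IP, and for the 6 endothelial markers 6.94 and 5.52 against 2.97 and 1.98. For the 5 Leydig markers the sums were 139 and 126 against 20.01 and 19.26, for 4 macrophage markers 4.28 and 4.17 against 1.23 and 1.11, and for 4 erythroid markers 172 and 162 against 18.4 and 14.6. Each measured marker was well above background on at least 1 FLAG IP array. On all 4 arrays this held for every germ cell, Sertoli and Leydig marker. It held there for only 4 of 6 endothelial, 2 of 4 macrophage and 3 of 4 erythroid markers. The part of these markers in the values of Klf2, Klf4 or any other KLF transcript was not tested.

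The other KLF and SP genes were tested; they are what remains of the family after the 10 genes were taken out on this comparison, and they were listed with its earlier results known, so their counts are not independent support. Of the other KLF genes, 6 of 8 were measured, all but Klf14 and Klf18. In limma, 5 of these 6 rose and 0 fell, with Klf1 not passing, against 28.0% of all genes called higher and 25.4% called lower at an adjusted p under 0.05. Klf11, a close relative of Klf10, rose by 2.55 ± 0.17 (adjusted p = 0.00381), from -1.07 and -0.90 in the Input to 1.55 and 1.58 in the FLAG IP. Its second probe gave 2.55 as well. Klf8, a CtBP-binding repressor related to Klf3 and Klf12, rose by 1.92 ± 0.18 (adjusted p = 0.00407).

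Klf15, a regulator of metabolism in muscle and liver, rose by 1.90 ± 0.21 (adjusted p = 0.00522), while its other passing probe gave 0.86 and the mean of its probes 1.38. That other Klf15 probe was well above background on 1 FLAG IP array and had 6.55 intensity units on FLAG IP replicate 1. Klf16 and Klf13, both Sin3-binding, rose by 1.55 ± 0.17 (adjusted p = 0.00487) and 1.01 ± 0.20 (adjusted p = 0.0173). Klf1, the master regulator of red cell genes, was at -0.35 ± 0.17 (adjusted p = 0.154). With the 10 described genes added, all 5 measured genes of the Sin3-binding group stood at least 2-fold higher, with differences between 1.01 and 2.55, against 23.9% of all genes. Klf9 and Klf10 among them were chosen on this comparison, and Klf9 and Klf13 fell short of 2-fold with median centring (0.94 and 0.88) and without FLAG IP replicate 1 (0.92 and 0.85). Klf9 also fell short with the mean of its probes (0.88) and with slide as a block (0.99), and Klf13 without Input replicate 2 (0.92). The activator group held 3 such genes of 6 and the CtBP-binding group 1 of 3, Klf8. Klf15 and Klf17, outside these groups, made up 2 of 2, and Klf17 was chosen on this comparison. Of the measured SP genes 4 of 6 met the same criterion, so it was not particular to the Sin3-binding group. This grouping of the KLF genes is the published one, was applied after the values were seen, and has no test.

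The SP factors share the zinc fingers of the family. Of 9 genes 6 were measured, and 4 rose and 0 fell in limma, against 28.0% and 25.4% of all genes. Sp4, Sp6, Sp5 and Sp1 rose by 2.50, 2.32, 1.26 and 1.01 (adjusted p = 0.00533, 0.00381, 0.0215 and 0.0147), while Sp3 was at 0.70 ± 0.25 and Sp2 at 0.34 ± 0.51 and did not pass. Sp2 had no steady sign, at -1.14 with quantile normalization, -0.12 when Input replicate 2 was left out and -0.18 when FLAG IP replicate 2 was. In all, 9 of these 12 KLF and SP genes were called higher. The count was 5 after normexp background correction, 5 with slide as a block, 5 without Input replicate 1 and 5 without Input replicate 2. The same 5 genes passed in these settings: Klf8, Klf11, Klf15, Sp4 and Sp6. With normexp, genes called higher among all genes numbered 1272, against 4275. Klf1 stood at -0.43 when FLAG IP replicate 2 was dropped. That value rests on FLAG IP replicate 1, where the Klf1 probe had 4.86 intensity units. The probe was well above background on 1 FLAG IP array. The Klf1 difference turned to 0.82 under normexp, so Klf1, like Sp2, had no steady sign.

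**Figure D3:**
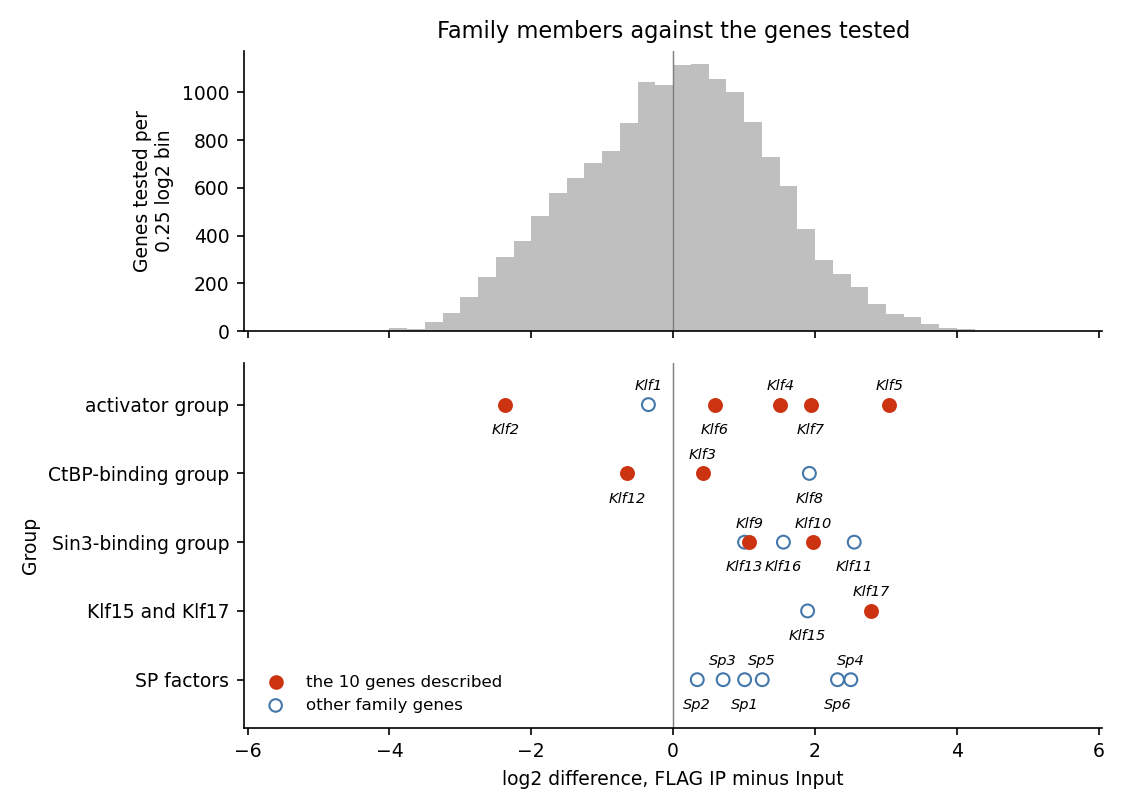
The upper panel is a histogram of the log2 difference FLAG IP minus Input over the 15266 genes; the lower panel gives each measured KLF and SP gene on the same x axis by group, filled red for the 10 described genes and open blue for the others. The Sin3-binding genes lie between 1.01 and 2.55, and Klf2, at -2.36, is the lowest point.

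Genes known to act with or beside KLFs were tested by list, and each count is to be read against the 28.0% of all genes called higher and the 25.4% called lower. Among 9 corepressor genes 3 rose and 4 fell, with a median of -0.58, and the count of those that rose is near that background. Within the Sin3 complex Sin3a rose by 1.33 ± 0.23 (adjusted p = 0.0131) and Sap30 by 0.97, whereas Sin3b fell by 1.73 ± 0.17 on the log2 scale (adjusted p = 0.00434). Hdac1 rose by 1.44, and Hdac3 and Ncor1, subunits of a nuclear receptor corepressor, fell by 1.86 and 1.78. The CtBP genes themselves stood at -0.23 ± 0.29 for Ctbp1 and -0.58 ± 0.22 for Ctbp2 and did not pass. Of 4 coactivator genes 2 rose, the acetyltransferase genes Kat2b by 0.96 and Crebbp by 0.68, against 28.0% of all genes. Kat2b was at 0.52 with the mean of its probes and did not pass (limma, adjusted p = 0.282).

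Of 6 genes for ubiquitin ligases that have been linked to the breakdown of KLF proteins, 4 rose and 0 fell in limma, against 28.0% and 25.4% of all genes. Fbxo32, linked to Klf4, rose by 2.57 ± 0.26, Fbxw7, linked to Klf5 and Klf2, by 1.79 ± 0.23 and Smurf1 by 1.09 ± 0.17. Of 7 measured upstream regulators 2 rose and 3 fell, and the count of those that rose is near the 28.0% of all genes; 25.4% of all genes fell. The kinase gene Mapk7, whose pathway induces Klf2 and Klf4, rose by 0.73, and Map2k5, for the kinase above it, fell by 0.95. Map2k5 was well above background on 1 FLAG IP array, and its difference was -0.14 after normexp. Mef2c, for a transcription factor of that pathway, fell by 1.13. Of the TGF-beta effectors Smad2 rose by 1.70 and Smad3 fell by 1.77.

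Klf2, Klf4, Klf6 and Klf10 are also known as fast-response genes, and of 16 measured immediate early genes 7 rose and 2 fell, against 28.0% and 25.4% of all genes, with a median of 0.59. Dusp1, a MAP kinase phosphatase gene, rose by 3.48 ± 0.43, Ier3 by 2.69 ± 0.26 and Egr2 by 2.65 ± 0.35, while Myc fell by 1.81 ± 0.19 and Ier2 fell from 2.57 and 2.53 in the Input to 0.86 and 0.25 in the FLAG IP (adjusted p = 0.00695). After normexp background correction Sin3a, Sap30, Hdac1, Hdac3, Kat2b, Crebbp, Fbxw7, Smurf1, Mapk7, Map2k5, Mef2c and Myc no longer passed, all with their direction kept. With slide as a block and without Input replicate 1, the same genes other than Fbxw7 and Myc did not pass, nor did Sin3b and Smad3. Without Input replicate 2 these were again lost, except that Hdac3 and Sin3b passed. Fbxo32, Ncor1, Smad2, Dusp1, Ier3, Egr2 and Ier2 passed in each of these 4 settings.

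**Figure D4:**
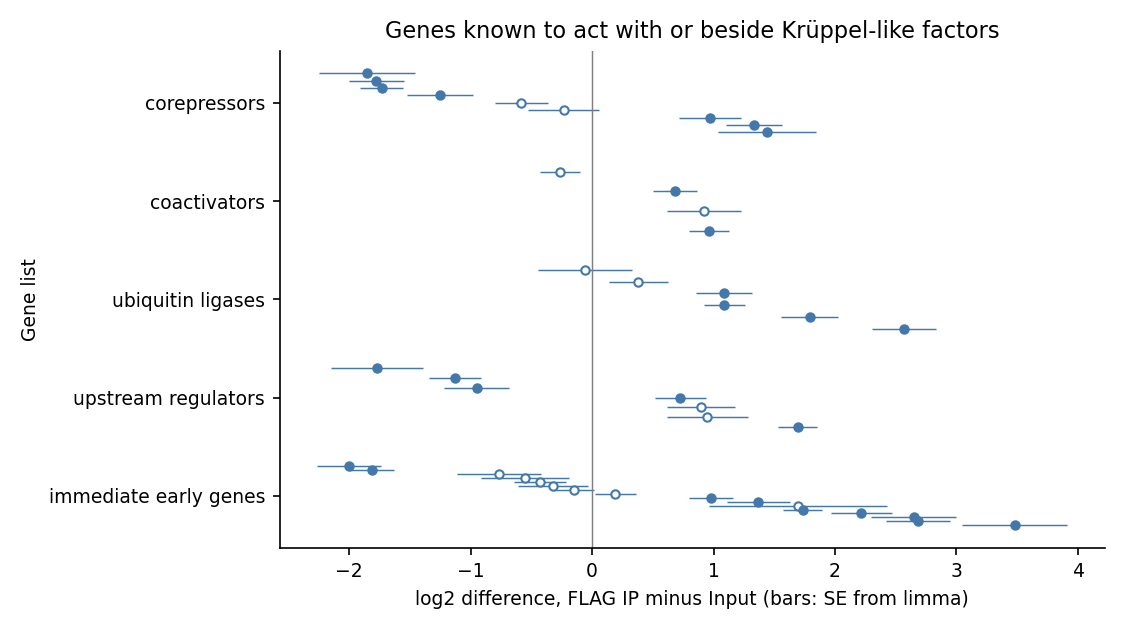
The x axis is the log2 difference FLAG IP minus Input with its SE from limma and the y axis the gene lists; filled points passed an adjusted p of 0.05 over all genes. Of the ubiquitin ligase genes 4 of 6 are filled and to the right of 0, whereas corepressors hold 3 filled points to the right and 4 to the left.

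By likeness over the 4 arrays (Euclidean distance of the log2 values, each minus the Input mean of its gene), genes nearest to Klf5 included Tex13b and Rhpn2, at distances of 0.079 and 0.093. For the Klf2 probe that stood lower they were Ifi204, Lama1 and Pknox2, at 0.28, 0.39 and 0.40. With 4 arrays in 2 groups, this likeness says little beyond a similar difference between the groups.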

How the data were processed

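RNA of FLAG IP and Input was measured on 4 Agilent one-colour mouse arrays. The submitters' processing notes name Agilent Feature Extraction 9.5 as the tool. Per the file headers, the deposited values used are its processed spot signals, a linear intensity. A deposited table of the authors holds a ratio to Input and a raw intensity for each group, pooled, and a p-value from a test of unstated reference, which was not used; 0 of its columns of per-sample values were left unused.

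Here each processed signal was divided by the array's 75th percentile and put on a log2 scale, outlier spots were left out and spots of a probe averaged. No spot was saturated (0). Probes were kept if both Input or both FLAG IP arrays called them well above background, and the brightest stood for its gene. Probes were named by gene ID (31004), older symbol (309), unchanged symbol (155) or file name (1108), with 8598 unnamed, against RefSeq genes of GRCm38.p6; the array headers name another build, so no coordinates are given. The groups were compared with limma 3.58.1 (R 4.3.3, two-sided, Benjamini-Hochberg over 15266 genes); the steps were tested on simulated data. Replicates share no stated source beyond their labels, so p-values measure the spread between these arrays.

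The KLF genes and all lists were chosen with earlier results of these data known. Named were all 10 genes, all other measured KLF and SP genes, from each other list up to 3 called genes in each direction, and 3 like genes each for the highest and lowest KLF, of which 1 is not reported here; Ctbp1 and Ctbp2 were added after their values were seen. Alternatives were normexp (offset 50, on median signals, since the files used here hold no mean signal), quantile and median scaling, other filters and probe rules, replicate and slide blocks, and each array left out.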

Additional observations from a re-analysis of the deposited data

How the results depend on the processing

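The signs of 9 of the 10 KLF differences held in the 12 alternatives run for single genes; Klf12 was at 0.13 after normexp and 0.01 without FLAG IP replicate 1. Normexp moved the median of all genes from 0.07 to 0.38, and relative to that median Klf5 stood at 2.17, Klf17 at 2.16, Klf10 at 0.83, Klf4 at 0.51, Klf6 at 0.10, Klf12 at -0.26 and Klf2 at -3.40. The median of the KLF differences was 1.05 with normexp (0.67 relative to all genes) and 0.68 with each probe kept separate, and 1.25 to 1.33 with an array left out. The number of KLFs at least 2-fold higher was 5 to 7. Those at least 2-fold lower numbered 0 with the mean of the probes and 1 to 2 with an array left out. With each probe kept separate, 2 probes were at least 2-fold lower.

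With each probe kept separate, 6167 of 26529 probes were called higher and 5954 lower, which are counts of probes and not of genes. Genes called higher and lower numbered 4275 and 3883, and 1272 and 1398 with normexp and 1431 and 1545 with slide as a block. With an array left out, the lone array assumed to vary like the other group, they ranged from 1431 to 6845 and from 1545 to 6212. Of the called genes 52.4% were higher, and 47.2% with median centring. Other KLF and SP genes called higher numbered 9, and 5 with normexp or slide as a block; the range was 5 to 10 with an array left out, and 0 to 1 for those called lower, with 0 at an unadjusted p under 0.05 when all arrays were used. With the replicate block 4130 and 3875 genes were called; same-numbered arrays shared only a number (correlation of deviations 0.050), and Crebbp and Mapk7 lost their calls. Median centring took those of Crebbp and Mapk7, quantile normalization those of Crebbp and Map2k5, and the mean of the probes those of Kat2b and Map2k5. Without the filter on dim probes, Klf13, Sp5, Hdac1, Sap30, Hdac3, Crebbp, Mapk7, Smad3 and Map2k5 lost their calls. Input replicate 1 lay alone on its slide, so the slide block gave the same counts as leaving it out. The causes were not tested. FLAG IP replicate 1, with 42.7% of spots well above background, limits the dim probes.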
